A study of Mus musculus with 12 samples.

Results

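CC chemokines are small secreted proteins with adjacent cysteines that draw leukocytes toward a site of inflammation. The genes described here were chosen by name from the deposited gene table: Ccl2, Ccl3, Ccl4, Ccl5, Ccl7, Ccl9, Ccl17 and Ccl22. Of these 8 genes, 7 were in the table of 12483 genes, and all 7 passed the filter on low counts that left 12231 genes to test. Ccl7 was not analysed here. The transcripts came from RAW264.7 cells, a mouse macrophage line, and the comparisons ask how deletion of an element named NRE1 bears on their levels at rest and after an inflammatory stimulus. The 4 groups were KO clones given LPS with IFN-gamma, KO clones in medium, WT clones given LPS with IFN-gamma, and WT clones in medium. LPS, the bacterial endotoxin that activates Toll-like receptor 4, was given at 10 ng/mL together with the lymphocyte cytokine interferon gamma at 50 ng/mL, for 6 h. KO cells had NRE1 deleted with a pair of CRISPR constructs and were grown as lines from single cells. The labels call the controls wild-type clones. Each group held 3 libraries, from KO clones 1A, 1B and 2 or from WT clones 1, 2 and 3, and each clone gave 1 library in each condition. The labels leave the name NRE1 and the relation of clones 1A and 1B unexplained, and p-values measure the spread between these clones.

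CC chemokines act through G protein-coupled receptors on the cells they attract. Ccl2 and Ccl7 signal through CCR2, the receptor of inflammatory monocytes. Ccl3, Ccl4 and Ccl5 attract monocytes and T cells, Ccl3 and Ccl5 in part through CCR1. Ccl9 is a rodent ligand of CCR1 made in large amounts by macrophage lineage cells, and Ccl17 and Ccl22 are the ligands of CCR4, found on several kinds of T cells. In macrophages most of these genes are targets of NF-kB and of interferon-activated factors.

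The 7 genes lie in a pair of clusters in the GRCm38 build. On chromosome 11, Ccl2 (chr11:82035571-82037453, plus strand) stands apart from a run of Ccl5 (chr11:83525778-83530518, minus strand), Ccl9 (chr11:83572919-83578636, minus strand), Ccl3 (chr11:83647844-83649355, minus strand) and Ccl4 (chr11:83662584-83664683, plus strand). In that run, Ccl3 and Ccl4 are 13.2 kb apart. On chromosome 8, Ccl22 (chr8:94745590-94751699, plus strand) lies 58.8 kb from Ccl17 (chr8:94810453-94812036, plus strand). No exon of the 7 genes overlapped an exon of another gene, and stretches of 50 bases shared with other genes were found in Ccl9 alone, over 1.97% of its exons.

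RefSeq promoter sequences (GRCm38.p6) were given for 4 of the 7 genes, and they are shown because Ccl22, Ccl17 and Ccl9 passed the test between KO and WT clones and Ccl3 was the most abundant member per length under stimulation. Each is given 5′ to 3′ on the gene's own strand. For Ccl17, Ccl9 and Ccl3 it is the 250 bases before the RefSeq start. For Ccl22 the 156 bases shown end before an earlier start in GENCODE, while the motif search covered the 250 bases before its RefSeq start. In the sequences, capitals mark matches to short inflammatory motifs. The motifs searched on both strands were a kB core (GGNNTTTCC), part of an ISRE (GAAANNGAA), AP-1 (TGANTCA), C/EBP (TTGCNNAA) and PU.1 (GAGGAAGT).
Ccl22: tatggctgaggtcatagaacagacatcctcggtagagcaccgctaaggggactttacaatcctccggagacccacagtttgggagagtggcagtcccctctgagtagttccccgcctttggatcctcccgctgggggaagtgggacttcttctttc
Ccl17: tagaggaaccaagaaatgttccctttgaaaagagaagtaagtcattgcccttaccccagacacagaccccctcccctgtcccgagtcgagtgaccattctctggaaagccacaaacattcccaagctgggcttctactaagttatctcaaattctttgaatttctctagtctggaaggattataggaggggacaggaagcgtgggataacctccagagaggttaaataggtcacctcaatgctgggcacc
Ccl9: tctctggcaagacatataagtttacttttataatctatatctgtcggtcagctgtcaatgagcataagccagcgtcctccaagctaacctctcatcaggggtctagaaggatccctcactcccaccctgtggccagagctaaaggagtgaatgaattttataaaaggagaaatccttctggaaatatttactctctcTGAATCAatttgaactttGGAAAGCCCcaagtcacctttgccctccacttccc
Ccl3: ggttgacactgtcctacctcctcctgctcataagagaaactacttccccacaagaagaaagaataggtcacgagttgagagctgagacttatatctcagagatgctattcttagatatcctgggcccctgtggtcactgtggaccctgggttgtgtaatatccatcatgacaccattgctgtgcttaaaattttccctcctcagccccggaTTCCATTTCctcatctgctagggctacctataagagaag
The Ccl9 promoter held an AP-1 match 53 to 47 bases before the start and a kB core on the opposite strand at 35 to 27 bases, which did not overlap. The Ccl3 promoter held the ISRE match on the opposite strand at 39 to 31 bases. The windows of Ccl22 and Ccl17 held none of the 5 motifs. Over 32851 promoters with windows of 250 bases, 6.75% held an AP-1 match, 4.93% the kB core, 7.13% the ISRE part, 9.56% C/EBP and 2.44% PU.1. A match describes these letters only.

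Total counts per library ran from 10624591 to 14388590, and mitochondrial genes took 1.24% to 2.53% of them. All 10 macrophage markers listed were in the table, among them Adgre1, Csf1r, Lyz2 and Spi1. Their summed level was 5384 to 11342 CPM in stimulated KO libraries and 8947 to 18414 CPM in stimulated WT libraries, and 4377 to 13665 CPM in KO medium libraries against 8135 to 18663 CPM in WT medium libraries. CPM are counts scaled to a common library size, here after TMM scaling. No fibroblast or epithelial marker was in the table, and 1 marker each was for B cells, T or NK cells, neutrophils and mast cells. In bulk RNA, fewer cells that express a gene and less RNA per cell cannot be told apart.

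All 7 genes were higher after LPS and IFN-gamma than in medium, in KO clones and in WT clones alike. Ccl2, Ccl5, Ccl17 and Ccl22 had 0 to 18 counts in each medium library, so they passed the low-count filter only through stimulated libraries. For these genes, counts under stimulation were thus a condition of being tested. A gene was called where the edgeR quasi-likelihood test gave an adjusted p below 0.05, and the shares called higher over all genes were 26.7% in KO clones and 23.8% in WT clones, with 27.6% and 23.6% called lower. The median log2 fold change of the members was 6.93 in KO clones and 5.88 in WT clones, against -0.01 over all genes tested in each. In stimulated libraries Ccl3 had 1094 to 3406 CPM, while Ccl2 in KO clones and Ccl17 stayed below 10 CPM. With library totals alone in place of TMM, the median over all genes shifted to -0.39 in KO clones and -0.37 in WT clones, and higher genes made up 24.5% and 23.2% of the calls, against 49.1% and 50.3% with TMM. All 7 members stayed higher under that scaling. The stimulated and medium libraries of a genotype did not overlap for any of the 7 genes. How many of all genes separate in this way was not counted.

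**Figure D1:**
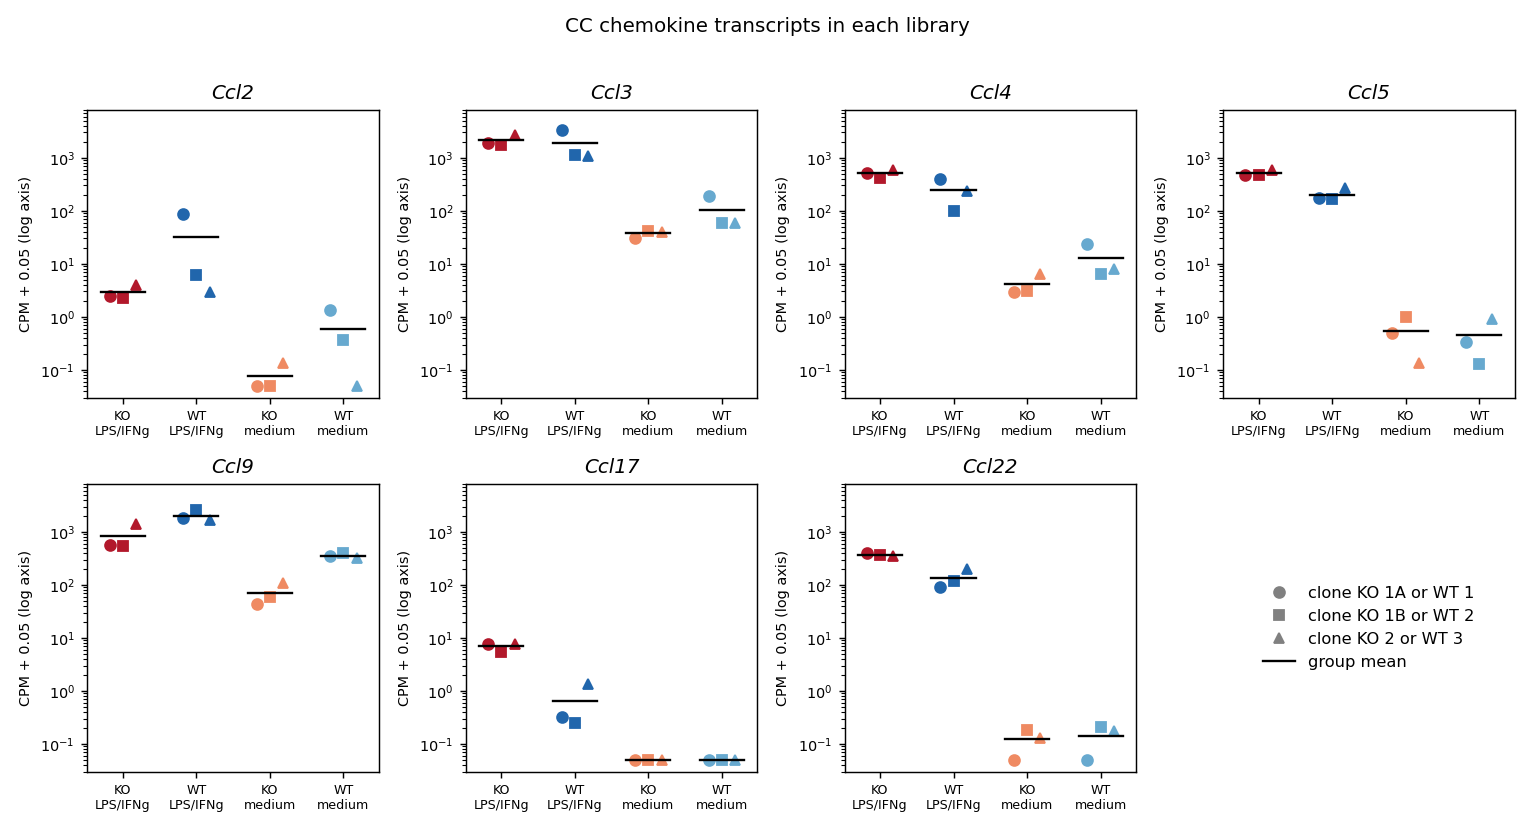
Level of each member in each library, in CPM plus 0.05 on a log axis, with 1 symbol per clone and the group mean as a line. All 7 genes are higher in stimulated than in medium libraries of the same genotype. Stimulated KO and WT libraries do not overlap for Ccl4, Ccl5, Ccl9, Ccl17 and Ccl22, of which only Ccl17 and Ccl22 were called. The share of all genes that separate in this way was not counted.

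Ccl2, the CCR2 ligand that recruits monocytes, was the gene in which a single clone stood furthest apart. It had 24, 23 and 36 counts in stimulated KO clones 1A, 1B and 2, against 0, 0 and 1 in their medium libraries. WT clones 1, 2 and 3 had 942, 61 and 31 counts when stimulated and 18, 4 and 0 in medium. WT clone 1 was thus the highest in both conditions, and the other WT clones were near the KO clones. The KO response was a 115-fold ratio of 83 counts over 1, with a 95% counting interval of 20.04 to 4586, and its call (adjusted p = 0.030) was lost without any one KO clone (0.11 to 0.13) and with KO 1A and 1B summed (0.086). The WT response was a log2 fold change of 5.89 ± 1.40 (SE, adjusted p = 0.0061), and without WT clone 1 it was 4.90 (adjusted p = 0.0028).

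Under stimulation Ccl2 averaged 2.88 ± 0.92 CPM in KO clones and 31.7 ± 47.0 CPM in WT clones (SD, n = 3 each), and the groups overlapped. The log2 difference of -3.46 ± 1.198 did not pass (adjusted p = 0.13). Without WT clone 1 it was -0.66 (adjusted p = 0.59), and without WT clone 3 it was -4.00 (adjusted p = 0.036). In medium KO clones had 1 count and WT clones 22, of which 18 were in WT clone 1, a ratio of 0.0481 with a counting interval of 0.00117 to 0.298, and the difference did not pass either (adjusted p = 0.57).

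Ccl3 and Ccl4, neighbouring genes that encode the macrophage inflammatory proteins 1 alpha and 1 beta, shared the order of the WT clones only in part. Stimulated Ccl3 had 1925, 1775 and 2663 CPM in KO clones 1A, 1B and 2, against 3406, 1128 and 1094 CPM in WT clones 1, 2 and 3. In medium it had 30.8, 42.4 and 39.8 CPM in these KO clones and 194, 58.2 and 58.2 CPM in these WT clones. WT clone 1 was highest in both conditions, and KO libraries were below all WT libraries in medium but lay among them under stimulation. Ccl3 rose by 5.81 ± 0.66 on the log2 scale in KO clones (adjusted p = 5.2e-05) and by 4.18 ± 0.61 in WT clones (adjusted p = 0.00035).

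Stimulated Ccl4 had 507, 410 and 598 CPM in KO clones 1A, 1B and 2, against 395, 97.6 and 235 CPM in WT clones 1, 2 and 3. In medium it had 2.92, 3.04 and 6.496 CPM in KO clones and 23.9, 6.42 and 7.84 CPM in WT clones. Every stimulated KO library was above every stimulated WT library, while in medium KO clone 2 overlapped WT clone 2. Ccl4 rose by 6.93 ± 0.73 in KO clones (adjusted p = 3.3e-05) and by 4.25 ± 0.63 in WT clones (adjusted p = 0.00040).

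Neither gene passed between genotypes. In medium the log2 difference of KO minus WT was -1.45 ± 0.55 for Ccl3 (adjusted p = 0.26) and -1.62 ± 0.63 for Ccl4 (adjusted p = 0.28), and without WT clone 1 it was -0.63 and -0.80 (adjusted p = 0.20 and 0.52). Under stimulation it was 0.18 ± 0.53 for Ccl3 (adjusted p = 0.89) and 1.06 ± 0.55 for Ccl4 (adjusted p = 0.30). Without WT clone 1 the stimulated Ccl3 difference was 0.93 and passed (adjusted p = 0.041). Per length, in RPKM over the union of exons, Ccl3 was 3.27 to 3.84 times Ccl4 in stimulated KO libraries and 4.02 to 9.95 times in stimulated WT libraries. In medium this ratio was 5.28 to 12.01 in KO libraries and 6.39 to 7.81 in WT libraries.

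Ccl5, also called RANTES, a T cell and monocyte attractant induced by interferon and NF-kB, was nearly silent in medium. It had 4678, 4925 and 5399 counts in stimulated KO clones 1A, 1B and 2, against 6, 14 and 1 in medium. Stimulated WT clones 1, 2 and 3 had 1933, 1628 and 2808 counts, against 4, 1 and 14 in medium. The log2 rise was 9.94 ± 0.55 in KO clones (adjusted p = 4.4e-07) and 8.82 ± 0.54 in WT clones (adjusted p = 1.1e-06). It was 10.88 in KO clones without KO clone 1B and 9.75 in WT clones without WT clone 3, the clones with the most Ccl5 counts in medium.

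Stimulated Ccl5 averaged 517 ± 63.9 CPM in KO clones and 203 ± 55.6 CPM in WT clones (SD, n = 3 each), with no overlap. The difference of 1.35 ± 0.34 lay just outside the threshold (adjusted p = 0.052). It passed with library totals alone (0.045), without the robust option (0.048), without WT clone 3 (0.015) and by DESeq2 (0.0011). In medium the difference was 0.23 ± 0.76 (adjusted p = 0.94), and its sign changed without KO clone 1B (-0.66).

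Ccl9, the CCR1 ligand also known as macrophage inflammatory protein 1 gamma, was the member most abundant in medium by CPM and the only one called there between genotypes. In medium it had 43.6, 58.6 and 109 CPM in KO clones 1A, 1B and 2, against 351, 407 and 317 CPM in WT clones 1, 2 and 3. All KO libraries were below all WT libraries, and the log2 difference was -2.35 ± 0.43 (adjusted p = 0.029). Over all genes, 0.858% were called lower and 0.352% higher in KO clones in medium. Of the 6 members with any count in medium, 1 was called. The call did not hold without WT clone 1 (adjusted p = 0.075), WT clone 2 (0.085), KO clone 1A (0.21) or KO clone 1B (0.20), nor with KO 1A and 1B summed (0.19). It was also lost in the test against a 1.5-fold change (0.090). The difference kept its direction in each of these.

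Stimulated Ccl9 had 560, 542 and 1409 CPM in KO clones 1A, 1B and 2, against 1832, 2599 and 1708 CPM in WT clones 1, 2 and 3. KO clone 2 was the highest KO clone in both conditions and still below every WT clone. The stimulated difference of -1.29 ± 0.41 did not pass (adjusted p = 0.11), but it passed without KO clone 2 at -1.89 (adjusted p = 0.0088) and by DESeq2 (adjusted p = 0.017). Ccl9 rose by 3.57 ± 0.45 in KO clones (adjusted p = 9.3e-05) and by 2.51 ± 0.43 in WT clones (adjusted p = 0.00084), the smallest rise of the 7 members in each genotype.

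Ccl22 and Ccl17, the neighbouring CCR4 ligands, were the members called higher in KO clones under stimulation. Over all genes, 1.13% were called higher and 3.51% lower in KO clones under stimulation, and 2 of 7 members were called higher and 0 lower. Ccl17 passed the low-count filter through its stimulated KO libraries, so its place in this tally was not independent of its level there. Stimulated Ccl22 had 401, 370 and 358 CPM in KO clones 1A, 1B and 2, against 92.0, 118 and 204 CPM in WT clones 1, 2 and 3. All KO libraries were above all WT libraries, and the log2 difference was 1.45 ± 0.28 (adjusted p = 0.018). In medium Ccl22 had 3 counts over the KO libraries and 4 over the WT libraries, so its levels there were not distinguishable at this depth. Its KO response was a 5061-fold ratio of 10983 counts over 3, with a counting interval of 1732 to 24547, and its WT response was a log2 fold change of 10.37 ± 0.51 (adjusted p = 2.4e-07).

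Ccl17 had no count in any medium library. Under stimulation it had 74, 55 and 71 counts in KO clones 1A, 1B and 2, against 3, 2 and 14 counts in WT clones 1, 2 and 3. The stimulated levels were 6.91 ± 1.33 CPM in KO clones and 0.60 ± 0.63 CPM in WT clones (SD, n = 3 each), with no overlap, and the log2 difference was 3.49 ± 0.64 (adjusted p = 0.032). With a floor of 3 counts over the medium group, Ccl17 was at least 92.2-fold higher after stimulation in KO clones (adjusted p = 0.00036) and at least 8.62-fold higher in WT clones (adjusted p = 0.010). The WT bound rests largely on WT clone 3, which held 14 of the 19 counts, and the WT call held without that clone (adjusted p = 0.018). Ccl22 had 46.1 to 68.8 counts for each Ccl17 count in stimulated KO libraries and 154 to 581 in stimulated WT libraries.

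Both calls of KO against WT were lost without KO clone 1A (adjusted p = 0.14 for Ccl22 and 0.18 for Ccl17), KO clone 1B (0.12 and 0.14) or KO clone 2 (0.062 and 0.084), and with KO 1A and 1B summed (0.11 and 0.15). They were also lost in the test against a 1.5-fold change (0.12 and 0.10), Ccl22 without WT clone 2 (0.051) and Ccl17 without WT clone 1 (0.068). Without WT clone 3, the WT clone with the highest Ccl17 and Ccl22, the differences were 1.84 for Ccl22 and 4.79 for Ccl17. Ccl17 and Ccl22 are also products of dendritic cells. Of 9 dendritic cell markers 5 were in the table, among them Zbtb46 and Itgax, and Flt3, Batf3, Cd209a and Ccr7 were not in it. The summed level of the 5 markers was 13.1 to 14.5 CPM in stimulated KO libraries and 16.2 to 86.6 CPM in stimulated WT libraries. This sum was not tested.

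**Figure D2:**
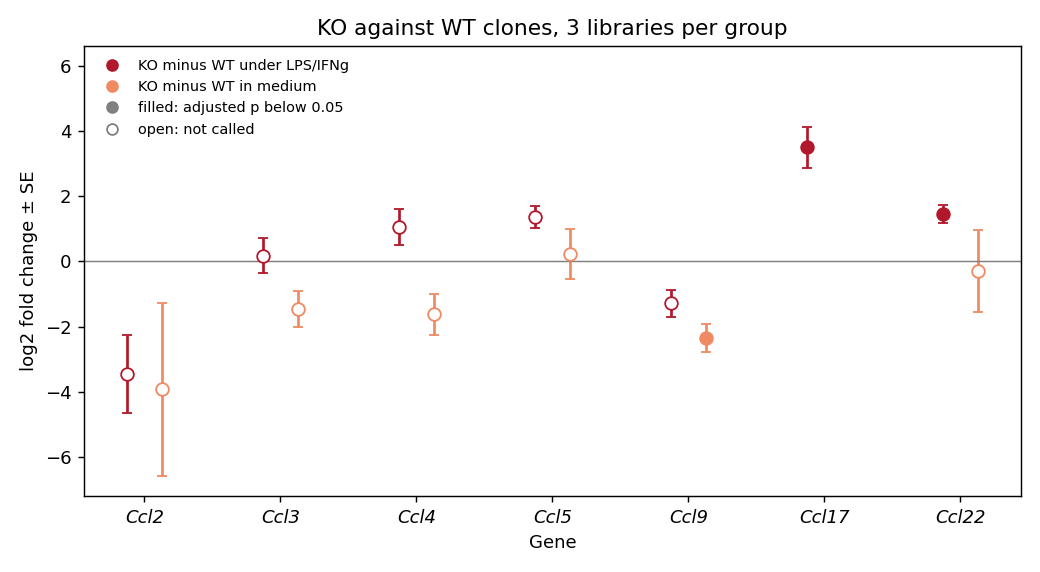
Log2 fold change of KO over WT clones for each member under LPS with IFN-gamma and in medium, with SE bars and filled points where the adjusted p was below 0.05. Ccl22 and Ccl17 are filled above 0 under stimulation and Ccl9 is filled below 0 in medium. Ccl17 has no medium value because its counts there were 0.

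Whether the responses of KO and WT clones differed was tested as an interaction. In the fit without clones as a block, 0% of genes were called (0 of 12231 by edgeR, 611 at an unadjusted p under 0.05, and 28 by DESeq2). No member was called by either tool, and Ccl4 was the only member among the 611. The 611 are about as many as chance alone would give at that threshold, so a place among them marks no gene out. The log2 difference of the responses was 2.68 ± 0.84 for Ccl4 (adjusted p = 0.76), 1.63 ± 0.77 for Ccl3, 1.06 ± 0.58 for Ccl9, 1.12 ± 0.86 for Ccl5 (0.19 without WT clone 3 and 2.06 without KO clone 1B), 1.75 ± 1.40 for Ccl22 and 0.46 ± 2.05 for Ccl2 (adjusted p = 1.00 each). The value of Ccl17 could not be estimated, with 0 counts in both medium groups. Each clone was measured in both conditions, so the libraries are paired by clone.

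With clone as a replicate block, the paired fit called Ccl3, Ccl4 and Ccl9, each with the larger response in KO clones, where 0.164% of all genes were called higher. The log2 difference of the responses was 1.59 ± 0.17 for Ccl3 (adjusted p = 0.017), 2.68 ± 0.31 for Ccl4 (adjusted p = 0.026) and 1.03 ± 0.16 for Ccl9 (adjusted p = 0.040). Ccl3 was 62.4, 41.9 and 66.9 times its medium level in stimulated KO clones 1A, 1B and 2, against 17.6, 19.4 and 18.8 times in WT clones 1, 2 and 3. Ccl4 was 173, 135 and 92.1 times its medium level in these KO clones, against 16.5, 15.2 and 29.9 times in these WT clones. Ccl9 was 12.9, 9.25 and 12.9 times its medium level in these KO clones, against 5.21, 6.38 and 5.38 times in these WT clones. For all 3 genes each KO clone was above each WT clone, including WT clone 1, whose levels of Ccl3 and Ccl4 stood high in both conditions. The genes were picked by the fit on these same libraries, so the separation is no added support. How many of all genes separate by clone response was not counted. With KO 1A and 1B summed, no member was called in the paired fit (adjusted p = 0.095 for Ccl3 and 0.17 for Ccl4 and Ccl9), and likewise without KO clone 1A or KO clone 2. Without KO clone 1B Ccl3 alone was called (adjusted p = 0.015). With any one WT clone left out all 3 were called.

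**Figure D3:**
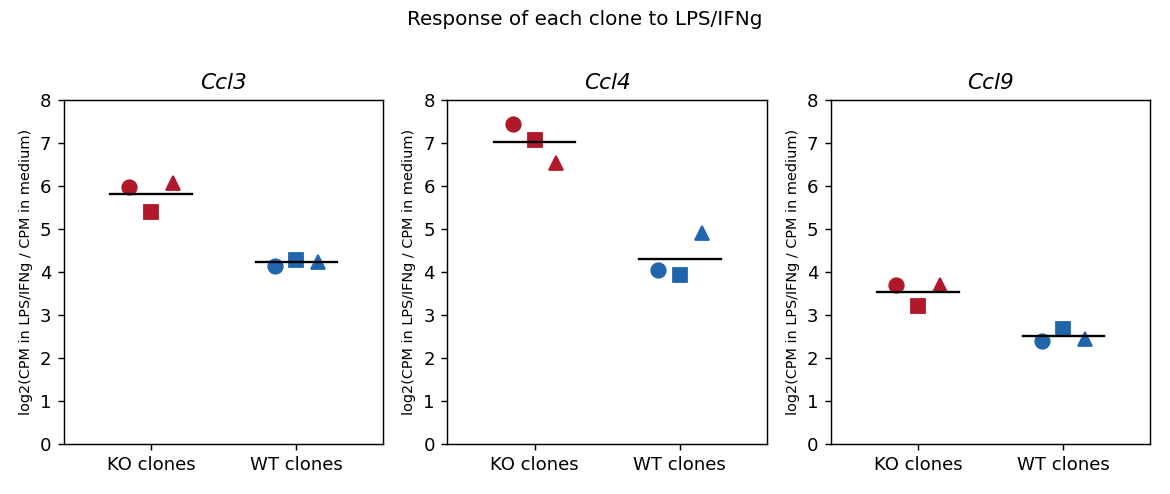
Log2 ratio of stimulated over medium CPM in each clone for Ccl3, Ccl4 and Ccl9, with the mean of each genotype as a line. The 3 KO clones lie above the 3 WT clones for each gene, for Ccl3 at 41.9 to 66.9 times against 17.6 to 19.4 times. The 3 genes are shown because the paired fit on these libraries called them.

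Levels between genes were compared in RPKM, which divides by exon length. The 7 members summed to 4525 ± 977 RPKM in stimulated KO clones and 3788 ± 1869 RPKM in stimulated WT clones, and to 79.2 ± 19.2 RPKM in KO clones and 273 ± 116 RPKM in WT clones in medium (SD, n = 3 each). Ccl3 was the largest under stimulation, at 61.1 ± 0.60% of the sum in KO clones and 60.6 ± 12.3% in WT clones. Ccl9 made up 5.78 ± 2.11% in stimulated KO clones and 20.8 ± 10.7% in stimulated WT clones. It ranked below Ccl3, Ccl4 and Ccl5 in all 3 KO libraries and next after Ccl3 in all 3 WT libraries. Ccl4 made up 17.0 ± 1.31% in KO clones and 9.55 ± 3.84% in WT clones, and Ccl5 12.1 ± 1.16% and 6.56 ± 3.57%. Ccl22 held 3.70 ± 0.83% and 1.93 ± 1.29%, and Ccl17 and Ccl2 were each at most 1.27% in every stimulated library. In medium Ccl3 and Ccl9 together held most of the sum, at 63.3 ± 8.82% and 28.2 ± 7.29% in KO clones and 45.4 ± 14.8% and 47.8 ± 17.1% in WT clones. The shares add to a fixed total and were not tested. The order of Ccl4 and Ccl5 in KO clones depended on the length used, since per length of the longest transcript Ccl5 had 721 RPKM and Ccl4 621 RPKM in KO clone 1B.

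**Figure D4:**
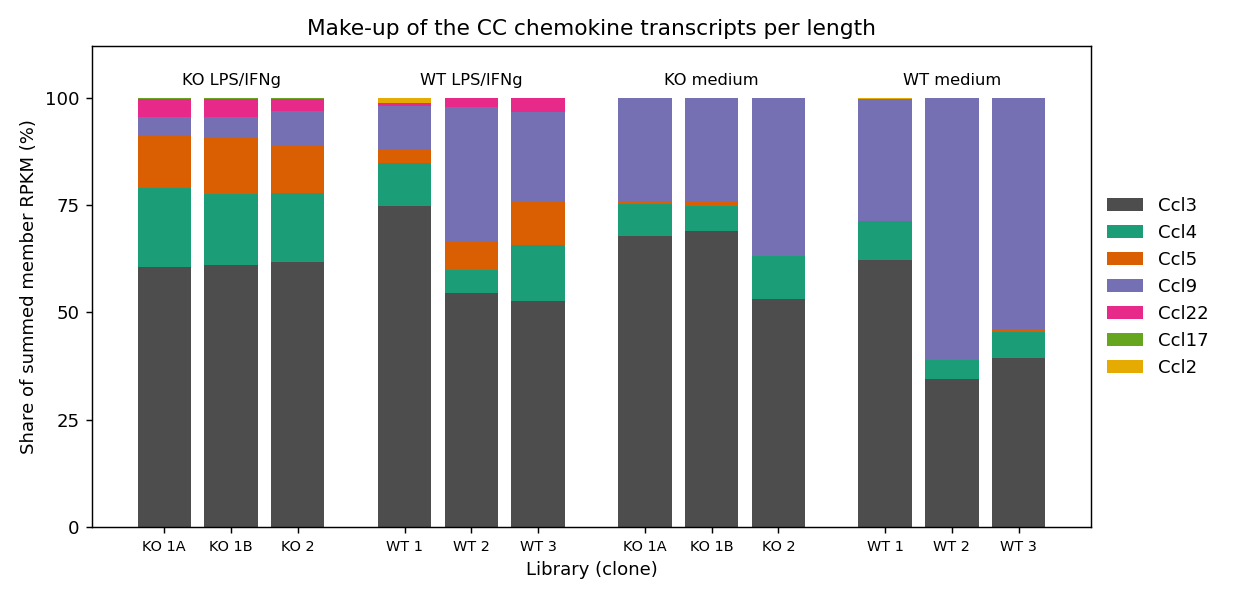
Share of each member in the summed RPKM of the 7 members, 1 bar per library. Ccl3 holds 52.6% to 74.8% in stimulated libraries, and the Ccl9 share is 4.43% to 8.21% in stimulated KO libraries against 10.1% to 31.6% in stimulated WT libraries.

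Within groups the members did not vary as a unit. Over the 12 libraries, the deviations from the group means correlated at 0.89 for Ccl2 and Ccl3, 0.82 for Ccl3 and Ccl4 and 0.58 for Ccl17 and Ccl22, and at -0.70 for Ccl2 and Ccl22 and -0.65 for Ccl3 and Ccl22. WT clone 1, high for Ccl2, Ccl3 and Ccl4 and lowest for Ccl22, enters each of the pairs with Ccl2 or Ccl3. Each medium library held 0 to 2 Ccl22 counts, and KO medium libraries held 0 or 1 Ccl2 count. Counting error thus enters the deviations of these genes in medium, which weigh as much as the stimulated ones. The genes whose log2 CPM was most like that of Ccl22 over the 12 libraries were Il6 (r = 0.995), Pim1 (0.995) and Klhl28 (0.994), and those most like Ccl5 were Pim1 (0.994), Eif4e2 (0.994) and Cd40 (0.993). The closest to Ccl3 was Rab6a (0.99), to Ccl4 Rheb (0.99), to Ccl9 Isca2 (0.98), to Ccl17 Cdk2ap2 (0.99) and to Ccl2 Hbegf (0.97). These libraries share the stimulus and are a description without a test.

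Other genes of the CC chemokine system were taken from fixed lists. Of 13 other CC ligands 3 were tested, and Ccl6 and Ccl12 were called higher after stimulation in both genotypes. Over all genes, 26.7% were called higher in KO clones and 23.8% in WT clones. Ccl6 had 7.43 ± 3.89 CPM in stimulated KO clones against 0.63 ± 0.32 CPM in medium, and 11.5 ± 7.10 CPM in stimulated WT clones against 0.87 ± 0.12 CPM in medium (SD, n = 3 each). Ccl12 had no count in medium, so it passed the low-count filter only through stimulated libraries. Its WT call did not hold without WT clone 3 (adjusted p = 0.051). No ligand of this list was called between genotypes.

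Of the CC receptors tested, Ccr1 and Ccr9 were called higher after stimulation in both genotypes, where 26.7% of all genes were in KO clones and 23.8% in WT clones. Ccr9 had at most 0.078 CPM in any medium library, so it was tested through stimulated libraries. Ccr1, the receptor of Ccl3, Ccl5 and Ccl9, was also called lower in stimulated KO clones, as were 3.51% of all genes. Stimulated Ccr1 had 5.35 ± 2.76 CPM in KO clones and 71.5 ± 21.5 CPM in WT clones (SD, n = 3 each), a log2 difference of -3.74 ± 0.73 (adjusted p = 0.022). That call did not hold without KO clone 1A (0.18), 1B (0.17) or 2 (0.052), or with KO 1A and 1B summed (0.16). Ccr2, the receptor of Ccl2, had 3.64 ± 0.86 CPM in stimulated KO clones and 29.9 ± 19.2 CPM in stimulated WT clones, without passing (adjusted p = 0.062), though it passed without WT clone 1 (0.025) or WT clone 2 (0.018) and by DESeq2 (0.00061). In medium the log2 difference was -3.69 ± 1.11 for Ccr1 (adjusted p = 0.16) and -4.35 ± 0.91 for Ccr2 (adjusted p = 0.051), and neither passed. Ccrl2, a chemerin-binding receptor that does not signal like the others, rose in KO clones by 7.45 ± 0.69 (adjusted p = 1.3e-05) and in WT clones by 6.53 ± 0.64 (adjusted p = 2.6e-05).

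Of 28 tested genes of receptor coupling and desensitisation, 10 were called higher and 8 lower after stimulation in KO clones, and 9 higher and 7 lower in WT clones. Over all genes, 26.7% were called higher and 27.6% lower in KO clones, and 23.8% higher and 23.6% lower in WT clones. Between genotypes, 3.51% of all genes were called lower and 1.13% higher in stimulated KO clones. Of the 28 genes, none was called in medium and 3 were lower in stimulated KO clones. These were Ptk2b, a calcium-sensitive kinase (-0.70 ± 0.13, adjusted p = 0.015), Plcb2, a phospholipase C (-0.65 ± 0.14, adjusted p = 0.030), and Pik3cg, the phosphoinositide kinase gamma subunit (-0.58 ± 0.14, adjusted p = 0.044). None of these 3 calls held without KO clone 1A (0.092 to 0.27) or 1B (0.097 to 0.24), or with both summed (0.10 to 0.24). Without KO clone 2 the Plcb2 (0.063) and Pik3cg (0.085) calls were lost, as they were without WT clone 1 (0.064 and 0.070). Of 6 tested peptidases that cleave chemokines, 3 were higher and 2 lower after stimulation in KO clones, and 2 higher and 1 lower in WT clones. Mmp9, a gelatinase, was the 1 called between genotypes, with 37.4 ± 0.68 CPM in stimulated KO clones and 3.26 ± 2.27 CPM in stimulated WT clones (SD, n = 3 each) and a log2 difference of 3.52 ± 0.56 (adjusted p = 0.0081). The Mmp9 call did not hold without KO clone 1A (0.093) or 1B (0.085) or with both summed (0.085). In medium the Mmp9 difference was 2.50 ± 0.85 and did not pass (adjusted p = 0.20).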

How the data were processed

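RNA-seq was analysed from 12 libraries of RAW264.7 clones. The authors deposited 1 table of whole-number gene counts, per Ensembl gene. In the sources used here, no aligner, counting tool or strand setting is given. Per the submitters' processing notes the genome was GRCm38, and DESeq2 is named there with no role. The table listed genes with at least 5 counts in the second-highest library. GENCODE M21 named 12305 of 12483 genes and left 178 unnamed.

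Counts were fitted with edgeR 4.0.16 in R 4.3.3. filterByExpr left out 252 genes, TMM scaled the libraries, and robust quasi-likelihood F tests used 1 mean per group over all libraries (8 residual degrees of freedom, common coefficient of variation 23.6%). P-values were adjusted by Benjamini-Hochberg over all 12231 genes. SE was taken as log2 fold change over the root of F. Where a group's libraries summed to 0 counts, 3 counts stood in as floor, and sums of 1 to 3 counts got a 95% interval. Floors and intervals cover counting error only. The unpaired fit was tested on simulated independent libraries, for the KO response alone. The paired fit, the difference of responses and clones of shared origin were not simulated.

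The comparisons were stimulated against medium within each genotype, KO against WT in each condition, and the difference of responses. Libraries were paired by clone, as labelled. Deviations of a clone's own libraries correlated at 0.64, 0.70 and 0.62 in WT clones 1, 2 and 3. KO clones 1A, 1B and 2 had 0.32, 0.29 and 0.51. With libraries of other clones, the best correlation stayed positive only in KO clones 1A (0.27) and 1B (0.18). The remaining clones had -0.37 to -0.11. The labelled pairing thus stood out least in KO clones 1A and 1B. Which clone gave each best correlation is not given here. The fit with clone as a replicate block (4 residual degrees of freedom, coefficient of variation 11.7%) was an alternative. Others were RLE factors, library totals alone, no filter, no robust option, a 1.5-fold test, each clone left out, KO 1A and 1B summed, and DESeq2 1.42.0. The paired fits with clones summed or left out were chosen after seeing the data. Members, lists and tests were chosen with earlier results of these data known. All 7 members are named, with at most 3 genes per list, those of smallest p in a comparison, and the genes of most similar pattern by Pearson correlation of log2 CPM. A receptor and a motif are not reported here.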

Additional observations from a re-analysis of the deposited data

Results flagged for a closer look

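The response to LPS and IFN-gamma differed between KO and WT clones for 3 CC chemokines in the fit with clone as a replicate block, and each had the larger response in KO clones. Over all genes, 20 of 12231 (0.164%) were called higher in that fit and 20 lower. The log2 difference of the responses was 1.59 for Ccl3 (adjusted p = 0.017, edgeR), 2.68 for Ccl4 (adjusted p = 0.026) and 1.03 for Ccl9 (adjusted p = 0.040). In each gene the 3 KO clones lay above the 3 WT clones. The fit tested these same libraries, so the separation is no added support. None of the 3 genes was called in the fit without the block, and the size of each difference was similar in both fits. With the block, none of the 3 was called with KO 1A and 1B summed (adjusted p = 0.095 for Ccl3 and 0.17 for Ccl4 and Ccl9), without KO 1A or without KO 2, and only Ccl3 was called without KO 1B. A larger response is not a higher stimulated level. In medium the log2 difference of KO minus WT was -1.45 for Ccl3, -1.62 for Ccl4 and -2.35 for Ccl9, and Ccl9 alone was called. Under stimulation it was 0.18, 1.06 and -1.29, and none was called.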

How the results depend on the processing

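All 7 members stayed called higher after stimulation in WT clones under every alternative tried, and 6 or 7 in KO clones, where Ccl2 was the one lost. Between genotypes the calls were fewer or more under some settings. In medium the 1 call of Ccl9 became 0 in the test against a 1.5-fold change and with KO 1A and 1B summed, and 0 to 1 with 1 clone left out. Under stimulation the 2 calls became 0 in the 1.5-fold test and with KO 1A and 1B summed, 4 by DESeq2 (Ccl5, Ccl9, Ccl17 and Ccl22), and 0 to 4 with 1 clone left out. For the difference of responses the count was 0, and 3 with the replicate block. In the paired fits added after seeing the data it was 3 without any one WT clone, 1 without KO 1B, and 0 without KO 1A, without KO 2 or with KO 1A and 1B summed. The block changed no call of the responses within a genotype. Counts over all genes moved more widely. KO against WT in medium had 148 calls, against 45 in the 1.5-fold test, 16 with KO 1A and 1B summed, 618 by DESeq2 and 14 to 419 with 1 clone left out. Under stimulation it had 567 calls, against 78, 73, 1187 and 48 to 972 in the same settings. The responses had 6638 calls in KO and 5796 in WT clones, against 3198 and 2462 in the 1.5-fold test. The interaction without the block had 28 calls by DESeq2 and 0 to 4 with 1 clone left out. With the block it had 40 calls, 92, 36 and 198 without WT clone 1, 2 or 3, 1 without KO 1B, and 0 without KO 1A, without KO 2 or with KO 1A and 1B summed. No direction of a called member was reversed. Fewer samples or clones enter the settings that sum or leave out clones, and otherwise the cause was not tested. In the 1.5-fold test the stimulated KO against WT calls of Ccr1, Ptk2b, Plcb2 and Pik3cg were lost too (adjusted p = 0.065 to 1.00). Depth limited Ccl2, Ccl5, Ccl17 and Ccl22 in medium, where single libraries held 18 counts or fewer.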
